A study of Mus musculus with 35 samples.

Results

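Transcripts of 10 genes that make or break down prostaglandins and leukotrienes were followed in myeloid-derived suppressor cells (MDSC) and bulk tumors of mice with pancreatic cancer. The genes were chosen by name, not by their values: Ptgs1, Ptgs2, Ptges, Hpgds, Hpgd, Alox5, Alox5ap, Lta4h, Ltc4s and Alox15. All 10 were present among the 53379 gene identifiers that were counted. RNA was sequenced from sorted MDSC of 8 female C57BL/6 mice, 4 per treatment. Each mouse carried an orthotopic tumor grown from T110299 cells, a line from a pancreatic tumor of a genetically engineered mouse with Ptf1a-Cre, so every group shared this tumor. Treated mice received 50 µg of high molecular weight poly(I:C) complexed with a polyethylenimine carrier at an N/P ratio of 6 (poly(I:C)c) intravenously on days 18 and 20, and the control mice, labelled untreated, received glucose by the treatment protocol in the labels.

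Polymorphonuclear MDSC (PMN-MDSC, sorted as CD11b+ Ly6C-low Ly6G+) and monocytic MDSC (M-MDSC, sorted as CD11b+ Ly6C-high Ly6G-) were taken from spleen and tumor. Tumors were dissociated mechanically with a tumor dissociation kit before the sort, spleens were passed through a strainer, and bulk tumors of untreated mice were lysed directly. The 8 MDSC groups held 4 libraries each, except treated splenic PMN-MDSC and treated tumor M-MDSC with 3 each, and bulk tumor had 4. Cell type, tissue and treatment were given for each column of the count table, but not the mouse, so library numbers below name libraries and pair nothing. Sample titles carry 8 running numbers that recur across tissues and cell types, taken here as 1 mouse each, so the p-values measure the spread between mice only if that reading holds.

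Arachidonic acid released from membranes by phospholipases is the common substrate of both arms of this pathway. The cyclooxygenases Ptgs1 (largely constitutive) and Ptgs2 (inducible, known as COX-2) turn it into prostaglandin H2, which synthases such as Ptges and Hpgds convert to prostaglandin E2 and prostaglandin D2, and Hpgd inactivates prostaglandins. In the leukotriene arm Alox5 acts with its membrane partner Alox5ap to form leukotriene A4, from which Lta4h makes the neutrophil attractant leukotriene B4 and Ltc4s the cysteinyl leukotriene C4, whereas Alox15 oxygenates the same and related fatty acids at another carbon. Prostaglandin E2 is a well-known suppressive mediator of myeloid cells in tumors, and neutrophils are a classical source of leukotriene B4.

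The MDSC libraries held 793070 to 4357105 counts and the bulk tumor libraries 3771590 to 8886115, and levels are given as counts scaled to a common library total (CPM). The sum of 10 interferon response genes, a check of the treatment labels, was 320 to 1029 CPM over the untreated and 1713 to 11640 CPM over the treated MDSC libraries, without overlap. Integrin alpha M (Itgam, CD11b) was present in every sorted library. The Ly6G gene Ly6g stood at 34.5 to 84.7 CPM in untreated splenic PMN-MDSC, but at 0, 1.63, 9.19 and 0.949 CPM in the libraries labelled untreated tumor PMN-MDSC, where 11 neutrophil genes summed to 1513 to 5261 CPM (24580 to 43380 in spleen) 14 macrophage genes to 3845 to 4921 CPM (1203 to 2594 in spleen) and 8 monocyte genes to 4494 to 8898 CPM (694 to 2139 in spleen). These 4 libraries thus went against their Ly6G+ label by this gene. In the libraries labelled untreated tumor M-MDSC, Ly6g was at most 0.55 CPM and the neutrophil sum 259 to 842 CPM. A comparison without the 4 could not be made, since they are the whole group, and the group is called tumor PMN-MDSC below by its label only. In treated mice Ly6g stood at 10.95, 27.6, 5.02 and 76.2 CPM in tumor and at 292, 226 and 335 CPM in splenic PMN-MDSC, so it was below the spleen in every treated tumor library too. The Ly6C gene Ly6c2 stood at 622 and 442 CPM in libraries 1 and 3 labelled treated tumor M-MDSC but at 2.98 CPM in library 2, which also had the highest macrophage sum of all libraries (10360 CPM). Library 2 thus went against its Ly6C-high label, and values that rest on it are given with and without it. Ly6c2 did not follow the sort labels elsewhere either. In treated splenic PMN-MDSC, sorted as Ly6C-low, it stood at 584, 916 and 995.5 CPM, overlapping treated splenic M-MDSC (785 to 1014 CPM). Library 4 of untreated tumor M-MDSC (40.4 CPM) was below untreated splenic PMN-MDSC (40.6 to 99.3 CPM). Ly6c2 is also 1 of the summed monocyte genes, yet it was 1.90 to 11.2 CPM in untreated tumor PMN-MDSC.

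Levels between genes were compared per kilobase of exon. In untreated tumor PMN-MDSC, Ptgs2 led the 10 genes with 709 ± 135 CPM per kilobase (SD, n = 4), and in untreated tumor M-MDSC it led with 416 ± 135 (SD, n = 4). In the spleen Alox5ap led, with 344 ± 43.0 CPM per kilobase in untreated PMN-MDSC and 233 ± 28.2 in untreated M-MDSC (SD, n = 4 each). Ptges was the rarest, with at most 4.41 CPM per kilobase in any group mean, followed by Hpgds (13.5) and Ltc4s (13.8). The plot of levels shows each gene in all 34 libraries.

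**Figure D1:**
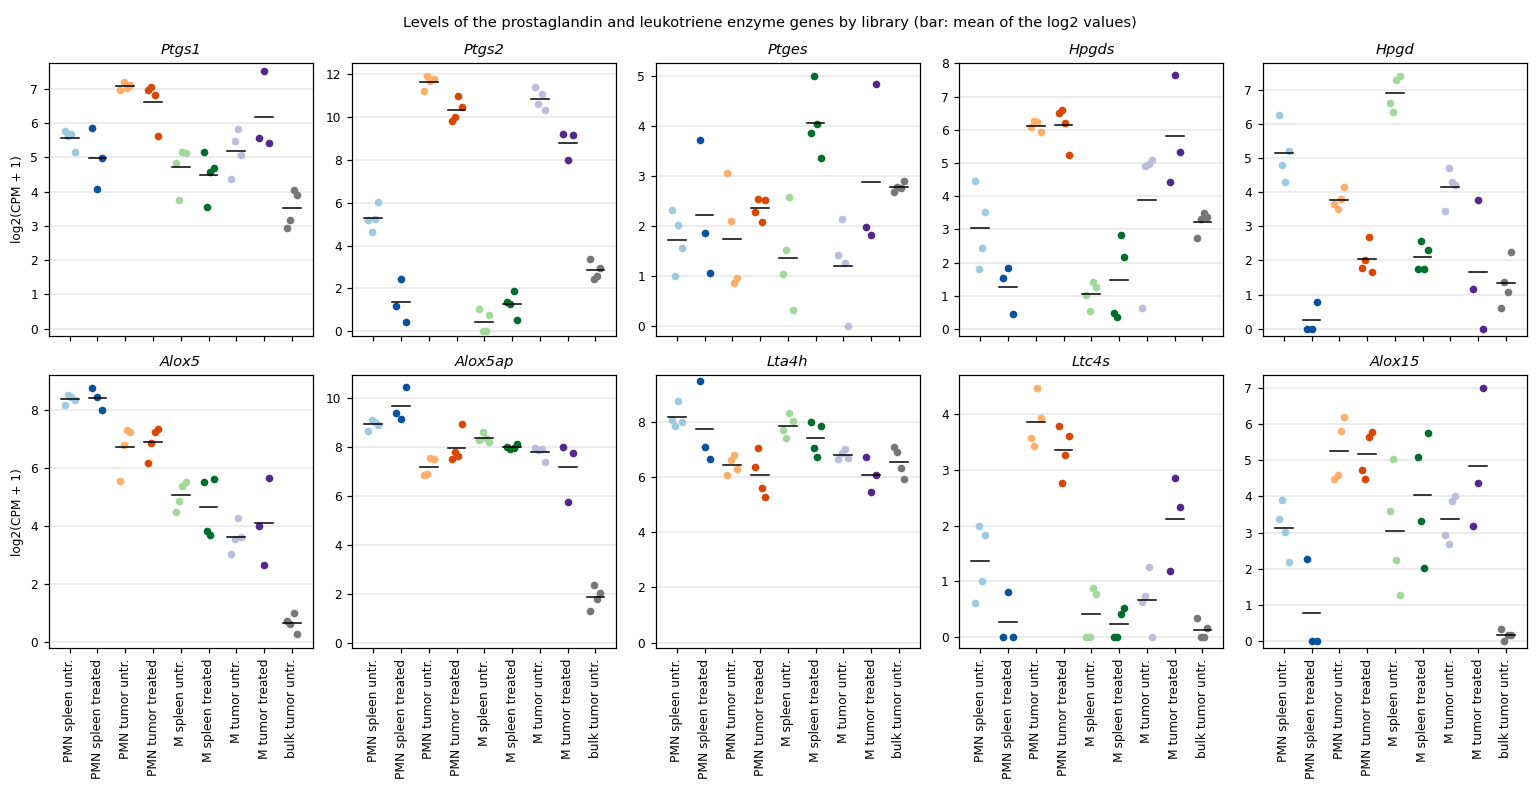
Level of each of the 10 genes (1 panel per gene, log scale of CPM plus a constant) in each library, by group, with a bar for each group. Ptgs2 is at 255 to 3841 CPM in the 15 tumor MDSC libraries and at or under 63.9 CPM in the 15 splenic ones, and Hpgd is at 0 to 4.95 CPM in all treated spleen libraries.

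Ptgs2 lies on chromosome 1 (chr1:150100031-150108227, plus strand, GRCm38) and was the gene with the widest range. Around its annotated start, 3 short motifs bound by factors of stress and inflammatory signalling or by basic helix-loop-helix proteins were found in the RefSeq sequence (GRCm38.p6). They are shown because Ptgs2 carries the largest differences below, and capitals mark the motif.
C/EBP palindrome TTGCGCAA, 69 bases before the start, chr1:150099954-150099977, plus strand: tgcggttcTTGCGCAActcactga
Cyclic AMP response element core TGACG read on the minus strand, 13 bases after the start, chr1:150100036-150100056, plus strand shown: caccactaCGTCAcgtggagt
E-box CACGTG overlapping that site, 16 bases after the start, chr1:150100039-150100060, plus strand: cactacgtCACGTGgagtccgc
Promoter sequence (250 bases before to 50 after the start) was matched for 8 of the 10 genes, without Alox5ap and Alox15, and searched on both strands. Among the 8, the palindrome occurred at Ptgs2 alone, against 0.183% of 32851 mouse promoters of that length, the cyclic AMP response element core at Ptgs2 alone (20.8%) and the E-box at Ptgs2 alone (7.15%). The looser C/EBP letters TTNNGNAA occurred at 4 of the 8 (Ptgs2, Ptges, Hpgds and Hpgd) and at 40.7% of all promoters. The interferon-stimulated response element (3.44% of promoters), the GAS element (TTCNNNGAA, 8.30%), AP-1 (TGANTCA, 7.81%), the full cyclic AMP response element (TGACGTCA, 1.79%) and an NF-kB motif (8.46%) were found at 0 of the 8. A match is only a run of letters in this window.

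The first comparison asked how MDSC in the tumor differed from those in the spleen of untreated mice. In the libraries labelled PMN-MDSC, Ptgs2, Ptgs1, Hpgds and Alox15 were higher in the tumor, and Hpgd, Alox5, Alox5ap and Lta4h were higher in the spleen. All 8 genes with enough counts to test (a mean of at least 25 over the libraries compared) passed an adjusted p under 0.05 in edgeR's quasi-likelihood test (Benjamini-Hochberg), and all 8 separated the libraries of the groups without overlap. Of all 7971 genes tested, 59.1% passed, and 29.9% and 24.5% did not overlap with the tumor higher and lower, so a high share was common in this comparison. Every one of the 8 calls was also made in each of 8 fits without 1 library.

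Ptgs2 stood at 35.8, 23.9, 36.9 and 63.9 CPM in the 4 splenic PMN-MDSC libraries and at 2390, 3841, 3275 and 3478 CPM in the 4 from tumors. The lowest tumor library was thus far above the highest splenic one, and the difference was 6.22 on the log2 scale (SE 0.337, 74.7-fold, adjusted p = 1.24e-06). Ptgs1 (chr2:36230426-36252272, plus strand) stood at 53.1, 48.3, 49.8 and 34.4 CPM in spleen and 124, 145, 130 and 136 CPM in tumor, a difference of 1.39 (SE 0.186, adjusted p = 0.000135). Both cyclooxygenases were therefore higher in the tumor, but by unequal amounts: Ptgs2 made up 41.4% ± 13.7 of cyclooxygenase transcripts per length in the spleen and 95.3% ± 0.709 in the tumor (SD, n = 4 each).

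Hpgds, the hematopoietic prostaglandin D synthase (chr6:65117293-65144908, minus strand), stood at 20.96, 2.49, 4.404 and 10.6 CPM in splenic and at 66.7, 75.8, 73.9 and 60.2 CPM in tumor PMN-MDSC. The tumor libraries lay close together, the splenic ones spread widely, and the difference was 2.69 (SE 0.433, adjusted p = 0.000435). Hpgd, the prostaglandin-inactivating dehydrogenase (chr8:56294585-56321043, plus strand), went the other way, from 76.1, 26.9, 18.6 and 35.6 CPM in spleen to 11.5, 10.3, 12.8 and 16.6 CPM in tumor (difference of -1.73, SE 0.386, adjusted p = 0.00316). Ptges was near the detection limit in both, with 0.996 to 3.98 CPM in spleen and 0.799 to 7.28 CPM in tumor, and was not tested.

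The 3 leukotriene B4 genes were all lower in tumor PMN-MDSC. Alox5 (chr6:116410077-116461178, minus strand) stood at 284, 367, 346 and 324 CPM in spleen and at 45.5, 111, 159 and 149 CPM in tumor (difference of -1.65, SE 0.332, adjusted p = 0.00169). For Alox5ap (chr5:149264767-149288153, plus strand), libraries ranged from 407 to 551 CPM in spleen and from 116 to 186 CPM in tumor, a difference of -1.85 (SE 0.228, adjusted p = 8.22e-05). Lta4h (chr10:93453411-93484875, plus strand) ranged from 228 to 426 CPM in spleen and 65.5 to 110 CPM in tumor (difference of -1.87, SE 0.238, adjusted p = 9.9e-05). The sum of neutrophil genes, given above with Ly6g, was also lower in the tumor, and the monocyte and macrophage sums were higher there, as were Ptgs2, Ptgs1 and Hpgds. Ly6c2, a member of the monocyte list, went the other way. It stood at 40.6, 56.3, 99.3 and 57.2 CPM in spleen and at 3.03, 8.13, 11.2 and 1.90 CPM in tumor. The platelet and megakaryocyte sum was 6.10 to 8.96 CPM in spleen and 39.6 to 69.7 CPM in tumor (Gp9, Gp1bb and Gp5 at 0 in the tumor), and the tumor epithelium sum 0.339 to 2.65 and 126 to 762 CPM. The T and NK cell and fibroblast sums were also higher in the tumor without overlap, and the B cell and erythroid sums lower. The part of cell makeup in these differences was not tested. In sorted populations measured in bulk, fewer cells of a type and less RNA per cell cannot be told apart.

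Ltc4s (chr11:50236461-50238616, minus strand) was the exception within the leukotriene arm. It gave 0.531 to 2.99 CPM in splenic PMN-MDSC (19 counts in 4 libraries) and 10.9, 9.75, 21.2 and 14.2 CPM in the tumor (119 counts), without overlap. The ratio of pooled counts over pooled library totals was 9.15, with an exact 95% interval of 5.61 to 15.7 that covers counting error only. Ltc4s is a marker enzyme of mast cells and eosinophils. Of 8 mast cell and basophil genes, Cpa3, Mcpt8, Fcer1a, Tpsb2 and Prss34 were at 0 in untreated tumor PMN-MDSC and the sum was at most 4.85 CPM, whereas 6 eosinophil genes summed to 96.4, 186, 183 and 228 CPM, beside 67.4 to 102 CPM in spleen. Alox15 (chr11:70344152-70352031, minus strand), a lipoxygenase that in mice is abundant in eosinophils and some resident macrophages, stood at 9.29, 13.9, 7.11 and 3.53 CPM in spleen and at 21.2, 23.3, 55.1 and 72.1 CPM in tumor (difference of 2.23, SE 0.495, adjusted p = 0.00298). The tumor library with the least Alox15 also had the lowest eosinophil sum (96.4 CPM) and the one with the most had the highest (228 CPM), and the part of eosinophils was not tested.

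In untreated M-MDSC the spleen held almost no Ptgs2. The 4 splenic libraries gave 1.05, 0, 0 and 0.714 CPM (5 counts in all), and the tumor libraries 2653, 1564, 2140 and 1266 CPM (15865 counts). The ratio of pooled counts over pooled library totals was 4395, with an exact 95% interval for counting error of 1883 to 13540, and the edgeR adjusted p was 1.85e-08. Ptgs2 made up 1.23% ± 1.53 of cyclooxygenase transcripts per length in splenic and 97.5% ± 1.08 in tumor M-MDSC (SD, n = 4 each). By the test of the difference between the cell types, the tumor effect on Ptgs2 was smaller in PMN-MDSC than in M-MDSC by 5.80 on the log2 scale (-5.80, PMN-MDSC minus M-MDSC, SE 0.629, adjusted p = 9.34e-06). The mean levels of Ptgs2 in the tumor were within a factor of 1.70 of each other.

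Of 6 testable genes, 4 differed between tumor and spleen in untreated M-MDSC, against 28.4% of all genes. Besides Ptgs2 these were Hpgd, from 96.5, 79.4, 155 and 168 CPM in spleen to 9.90, 24.9, 18.6 and 17.6 CPM in tumor (difference of -2.57, SE 0.298, adjusted p = 6.11e-05), Alox5 (-1.21, adjusted p = 0.0112) and Lta4h (-0.83, adjusted p = 0.00449). Alox5 was low throughout M-MDSC, at 21.6 to 44.99 CPM in spleen and 7.15 to 18.3 CPM in tumor. In a fit over all groups the last 2 lost the call (adjusted p = 0.123 for Alox5 and 0.187 for Lta4h). Alox5ap did not pass, although its libraries did not overlap (310, 387, 330 and 296 CPM in spleen, 250, 238, 246 and 169 CPM in tumor, adjusted p = 0.164), as was so for 27.6% of all genes with the tumor lower, and it passed with upper-quartile scaling (-0.44, adjusted p = 0.0456). The monocyte sum was 6858 to 10600 CPM in spleen and 11170 to 14570 CPM in tumor, but its member Ly6c2 overlapped (119 to 202 CPM and 40.4 to 147 CPM). The neutrophil sum went from 4112 to 10330 CPM in spleen to 259 to 842 CPM in tumor, lower without overlap as Alox5 and Lta4h were, and the macrophage sum from 557 to 768 CPM to 1892 to 2754 CPM. The tumor epithelium sum was 1.06 to 10.8 CPM in spleen and 98.97 to 328 CPM in tumor. The platelet and megakaryocyte sum was also higher in the tumor without overlap (1.58 to 3.31 against 8.83 to 25.5 CPM), and the B cell and erythroid sums were lower. The part of these cells in the differences of Alox5, Lta4h and Hpgd was not tested.

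Ptgs1 stood at 12.5 to 34.4 CPM in splenic and 19.8 to 55.8 CPM in tumor M-MDSC, overlapping (difference of 0.76, adjusted p = 0.115). Without tumor library 1 the difference was 0.97 and passed (adjusted p = 0.0381). Hpgds had too few counts for the test, with 1.05, 0.465, 1.66 and 1.43 CPM in spleen and 0.55, 28.98, 30.2 and 32.8 CPM in tumor. Thus 3 of the 4 tumor libraries were well above the spleen and library 1 was not, which was also the lowest library for Ptgs1. Ptges, Ltc4s and Alox15 were not tested here either: Ptges gave 0 to 4.97 CPM and Ltc4s at most 1.39 CPM in these 8 libraries, and Alox15 gave 1.43 to 31.6 CPM in spleen and 5.39 to 15.1 CPM in tumor.

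The contrast between tumor and spleen was measured again in treated mice. In PMN-MDSC 7 of 7 testable genes passed, against 53.6% of all genes, in the same directions as the same 7 genes in untreated mice. Ptgs2 gave 1.28, 4.46 and 0.36 CPM (15 counts) in spleen and 883, 1000, 2003 and 1412 CPM in tumor, a ratio of 584 (exact 95% interval for counting error 354 to 1044, adjusted p = 0.000142). Hpgds gave 1.92, 2.60 and 0.36 CPM in spleen and 89.8, 95.9, 72.5 and 36.6 CPM in tumor (difference of 5.05, SE 0.557, adjusted p = 0.000241). The libraries did not overlap for either gene, nor for 40.6% of all genes with the tumor higher. Hpgd, which was lower in the tumor in untreated mice, had too few counts for the test and lay the other way, at 0, 0 and 0.72 CPM (2 counts) in treated spleen and 2.46, 3.07, 5.47 and 2.15 CPM (35 counts) in treated tumors, without overlap. In the fit with no filter on low counts it was higher in the tumor by 2.90 (SE 1.08, adjusted p = 0.0328).

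Alox5 (-1.90, adjusted p = 0.00221) and Alox5ap (-2.05, SE 0.467, adjusted p = 0.00612) were again lower in treated tumor PMN-MDSC, and Alox15 was higher (4.88, adjusted p = 0.00357, with 6 counts in the spleen). The remaining pair was less firm. Ptgs1 passed with overlapping libraries (1.18, adjusted p = 0.0464) and lost the call in 5 of 7 fits without 1 library, those without spleen library 2 (0.82, adjusted p = 0.144) or 3 (0.135) and without tumor library 1 (0.0836), 2 (0.0961) or 3 (0.0888). Lta4h passed with a difference of -2.51 (adjusted p = 0.0148), which rested on spleen library 1 with 706 CPM beside 134 and 98.3 CPM, and was -1.14 (adjusted p = 0.0528) without it. Of the genes not tested besides Hpgd, Ltc4s gave 0, 0.743 and 0 CPM in spleen and 12.9, 5.80, 8.67 and 11.2 CPM in tumor, and Ptges overlapped (1.08 to 12.2 and 3.19 to 4.78 CPM). The neutrophil sum was again lower in the tumor (35180 to 77540 CPM in spleen, 4698 to 11420 CPM in tumor), and the macrophage (538 to 749 and 3451 to 6903 CPM) and eosinophil sums (15.1 to 30.1 and 51.2 to 176 CPM) were higher, without overlap. So were the monocyte, dendritic cell, T and NK cell, platelet, tumor epithelium and endothelium sums, and the B cell sum was lower. Ly6c2, a member of the monocyte list, was lower in the tumor (584 to 995.5 CPM in spleen, 67.5 to 245.5 CPM in tumor). The part of these cells in these differences was not tested.

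Treated M-MDSC had 2 of 8 testable genes called between tumor and spleen, against 5.87% of all genes. Ptgs2 rose from 1.58, 1.46, 2.701 and 0.442 CPM (18 counts) in spleen to 588, 255 and 576 CPM in tumor, a ratio of 268 (exact 95% interval for counting error 169 to 453, adjusted p = 0.000437), and it passed also without the doubtful tumor library 2 (8.55, adjusted p = 6.92e-05). Hpgds gave 0.395, 0.291, 6.08 and 3.54 CPM in spleen and 20.6, 199 and 39.4 CPM in tumor (difference of 5.15, SE 1.04, adjusted p = 0.0279). Its highest value came from library 2, and the call was lost without that library (3.62, adjusted p = 0.0704), as it was without spleen library 1 (0.0926), 2 (0.0882) or 4 (0.055). Ptgs1 gave 46.4, 182 and 41.6 CPM in tumor and 10.8 to 34.7 CPM in spleen without overlap, as was so for 10.4% of all genes with the tumor higher (2.06, adjusted p = 0.0788, and 1.01, adjusted p = 0.252, without library 2), and passed with DESeq2 (0.00696, where 12.5% of all genes passed) and in the fit over all groups (0.00186). The other 5 tested genes overlapped between tumor and spleen. They were Lta4h (-1.24, and -0.98 without library 2, with DESeq2 adjusted p = 0.0303), Alox5ap (-0.47 and -0.04), Alox5 (-0.25 and 0.24), Alox15 (1.19 and 1.58) and Ptges (-0.62 and -0.10). Hpgd (2.36 to 4.95 CPM in spleen, 1.26, 12.6 and 0 CPM in tumor) and Ltc4s (at most 0.442 CPM in spleen, 1.26, 6.20 and 4.05 CPM in tumor) were not tested. The macrophage sum was 878 to 1283 CPM in spleen and 2598 to 10360 CPM in tumor, and the platelet, tumor epithelium and fibroblast sums were higher in the tumor without overlap as well. Their part was not tested.

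**Figure D2:**
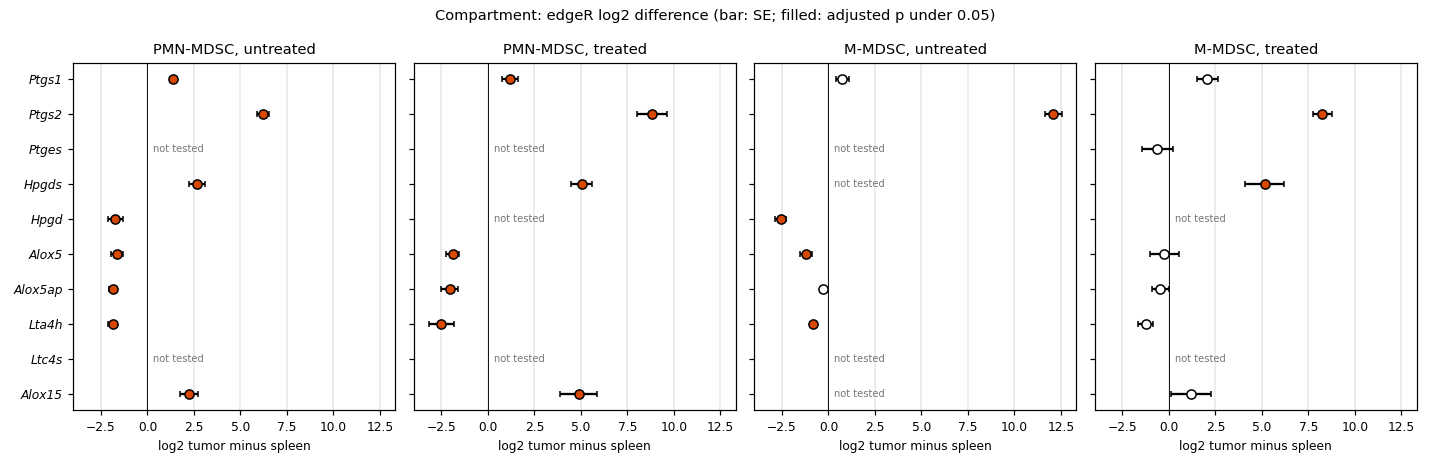
Log2 difference of tumor minus spleen with its standard error from edgeR for each tested gene, in PMN-MDSC and M-MDSC of untreated and treated mice; filled points passed an adjusted p under 0.05. Ptgs2 has the largest difference in all 4 comparisons (6.22 in untreated and 8.83 in treated PMN-MDSC, 12.09 in untreated and 8.25 in treated M-MDSC), and Alox5, Alox5ap and Lta4h are below 0 in all 4, though Alox5 in treated M-MDSC is at 0.24 without library 2 of the tumor.

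Ptgs2 did not stand alone in the tumor libraries. A list of 14 immediate-early and stress genes (Fos, Jun, Egr1, Atf3, Hspa1a and others), chosen after the values were seen, summed to 15350 to 19380 CPM in untreated tumor PMN-MDSC and 15980 to 17280 CPM in untreated tumor M-MDSC. In untreated spleen the sums were 2588 to 4701 CPM in PMN-MDSC and 744 to 1118 CPM in M-MDSC, and in bulk tumor 267 to 304 CPM. Bulk tumor was lysed without dissociation and had the lowest sum, and its Ptgs2 was 9.38, 4.51, 4.95 and 6.75 CPM. Ptgs2 and this list were thus high in the same groups. Dissociation was given to all tumor MDSC and to no other group, so tissue and preparation cannot be told apart for Ptgs2. The same holds for every other gene compared between tumor and spleen. Between bulk tumor and sorted cells, cell makeup and preparation cannot be told apart either.

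Over the 30 MDSC libraries, the 3 genes among 8536 whose log2(CPM + 1) was most like that of Ptgs2 were Nfkbiz (Pearson r = 0.970), Egr1 (0.968) and Nfkbid (0.966). Pdgfc was among the 3 most like genes of both Ptgs1 (0.860, after Cd63 with 0.886 and before Tanc2 with 0.858) and Hpgds (0.946, with Itga9 at 0.943 and Myh10 at 0.941), and Ptgs1 and Hpgds had an r of 0.835 with each other. Alox5 was most like Slc2a3 (0.978), Cd24a and Mgll (0.972 each), Alox5ap like Nlrx1 (0.930), Hp (0.924) and Ifitm6 (0.921), and Lta4h like Dnah8 (0.878), Mlst8 (0.875) and Mppe1 (0.874). Hpgd was most like Ciita (0.866), Amz1 (0.859) and Tacc1 (0.844), and Alox15 like Fgfr1 (0.879) and Dnajb9 (0.776). Between the arms r was -0.651 for Hpgds and Alox5ap and -0.633 for Ptgs2 and Lta4h, but Alox5 was near 0 with Ptgs2 (-0.092) and Hpgds (-0.013) and at 0.211 with Ptgs1. These libraries fall into 8 groups and share them, so the values describe the pattern over groups. Ptges and Ltc4s, with a mean under 25 counts, were left out.

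The macrophage sum is given beside Hpgds and Ptgs1. In treated tumor M-MDSC the macrophage sums were 2598, 10360 and 4978 CPM, beside Hpgds at 20.6, 199 and 39.4 CPM and Ptgs1 at 46.4, 182 and 41.6 CPM. Library 2 was highest in all 3 measures, whereas library 3 had more macrophage transcripts than library 1 but less Ptgs1. In PMN-MDSC the 8 tumor libraries had macrophage sums of 3451 to 6903 CPM and Hpgds of 36.6 to 95.9 CPM, and the 7 splenic ones 538 to 2594 CPM and 0.36 to 20.96 CPM. The lowest tumor PMN-MDSC library for Hpgds (36.6 CPM) and Ptgs1 (48.2 CPM) was also the lowest for the macrophage sum. The part of macrophages in these levels was not tested.

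**Figure D3:**
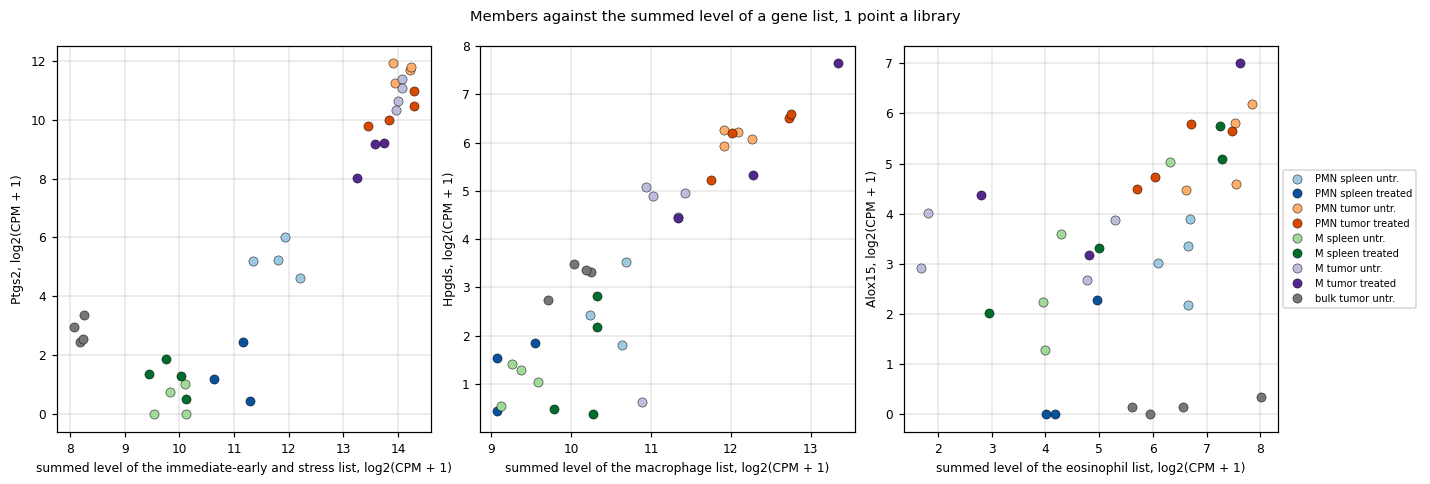
Ptgs2, Hpgds and Alox15 in each library (CPM) against the summed CPM of the immediate-early and stress, macrophage and eosinophil lists, log axes, with groups by colour. Ptgs2 and its list are both high in the 15 tumor MDSC libraries, and Hpgds is highest (199 CPM) where the macrophage sum is highest (10360 CPM). Bulk tumor stands apart in the third panel, with eosinophil sums of 47.7 to 258 CPM beside Alox15 of at most 0.264 CPM.

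The treatment comparisons asked which enzymes changed with poly(I:C)c. Ptgs2 fell in 3 of the 4 MDSC populations and was too rare to test in the fourth, splenic M-MDSC. Hpgd fell in both splenic populations, and Ptges rose in splenic M-MDSC. No other gene of the 10 passed the test in any of the 4.

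In splenic PMN-MDSC 2 of 6 testable genes passed, both lower, against 11.6% of all genes. Hpgd went from 76.1, 26.9, 18.6 and 35.6 CPM (507 counts) to 0, 0 and 0.72 CPM (2 counts), a ratio of 150.5 with an exact 95% interval for counting error of 41.5 to 1246 (adjusted p = 0.00403). Ptgs2 fell from 35.8, 23.9, 36.9 and 63.9 CPM to 1.28, 4.46 and 0.36 CPM, a log2 difference of -3.90 (SE 0.658, adjusted p = 0.00933). The groups did not overlap for either gene, as was so for 24.2% of all genes with treated libraries lower, and both calls were kept in all 7 fits without 1 library.

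Alox5ap in splenic PMN-MDSC gave 407, 551, 514 and 483 CPM untreated and 672, 566 and 1415 CPM treated. All 3 treated libraries were above the untreated ones (6.25% of all genes), but the difference of 1.13 (SE 0.32) missed the threshold (adjusted p = 0.0558). It passed with DESeq2 (0.00772, where 18.6% of all genes passed), in the fit over all groups (0.0372) and in edgeR without treated library 1 (1.30, adjusted p = 0.043) or 2 (1.36, adjusted p = 0.0452). Alox5 (0.36, adjusted p = 0.367), Lta4h (0.38, adjusted p = 0.741) and Ptgs1 (-0.17, adjusted p = 0.822) overlapped between the groups. The 4 genes that were not tested here were low, with treated and untreated values of 0.36 to 2.60 and 2.49 to 20.96 CPM for Hpgds, 0 to 3.84 and 3.53 to 13.9 CPM for Alox15, 1.08 to 12.2 and 0.996 to 3.98 CPM for Ptges, and 0 to 0.743 and 0.531 to 2.99 CPM for Ltc4s.

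Several cell-type sums moved in the same libraries. From untreated to treated splenic PMN-MDSC, 8 dendritic cell genes went from 27.8 to 88.1 CPM to 1.44 to 4.83 CPM, with Flt3 and Xcr1 at 0 in the treated ones and Siglech at 0 in both, and the macrophage sum went from 1203 to 2594 CPM to 538 to 749 CPM. The immediate-early sum went from 2588 to 4701 CPM to 1577 to 2517 CPM. The erythroid sum went from 59.3 to 175 CPM to 0.36 to 3.84 CPM, and the eosinophil sum from 67.4 to 102 CPM to 15.1 to 30.1 CPM. The B cell, T and NK cell and endothelium sums were lower without overlap as well (35.4 to 79.3 against 9.60 to 32.7 CPM, 11.2 to 17.3 against 2.52 to 4.83 CPM, and 25.1 to 67.9 against 9.60 to 15.2 CPM). In splenic M-MDSC the erythroid sum went from 28.3 to 60.5 CPM to 0.675 to 2.91 CPM and the monocyte sum from 6858 to 10600 CPM to 3938 to 5505 CPM, both without overlap. Ly6c2, a member of the monocyte list, rose there instead, from 119 to 202 CPM to 785 to 1014 CPM. The dendritic sum there was 29.8 to 54.9 CPM untreated and 21.6 to 47.7 CPM treated, and the macrophage sum 557 to 768 and 878 to 1283 CPM. The endothelium sum there went from 24.8 to 34.8 CPM to 129 to 293 CPM, with Tek and Emcn at 0 in both. The part of these cells in the differences of Ptgs2, Hpgd, Ptges and Alox15 was not tested.

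In splenic M-MDSC 2 of 7 testable genes passed, against 19.6% of all genes. Hpgd stood at 96.5, 79.4, 155 and 168 CPM in untreated and at 2.37, 4.95, 2.36 and 3.98 CPM in treated mice, and fell by 5.08 on the log2 scale (SE 0.333, 33.8-fold, adjusted p = 2.47e-05). Ptges, the inducible prostaglandin E synthase (chr2:30889471-30929863, minus strand), rose from 1.05, 1.86, 4.97 and 0.238 CPM (19 counts) to 13.4, 31.1, 15.5 and 9.29 CPM (208 counts), by 3.25 (SE 0.671, 9.55-fold, adjusted p = 0.00875). Both genes separated the groups without overlap, as did 16.6% of all genes with treated libraries lower and 10.4% with treated libraries higher. The call for Hpgd was made in all 8 fits without 1 library and that for Ptges in the 7 in which it had enough counts.

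Ptgs2 in splenic M-MDSC stayed near its floor, with 5 counts in untreated and 18 counts in treated libraries. Alox5ap gave 310, 387, 330 and 296 CPM untreated and 257, 242, 252 and 280 CPM treated, lower in all 4 but not past the threshold (-0.29, adjusted p = 0.138). Ptgs1, Alox5, Lta4h and Alox15 overlapped between the groups, with adjusted p of 0.463 to 0.842. Alox15 ranged from 1.43 to 31.6 CPM untreated and 3.04 to 52.6 CPM treated, and its 2 highest treated libraries (33.1 and 52.6 CPM) were those with the 2 highest eosinophil sums (154 and 152 CPM). Hpgds (0.465 to 1.66 CPM untreated, 0.291 to 6.08 CPM treated) and Ltc4s (at most 0.828 CPM) were not tested.

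In tumor PMN-MDSC 1 of 8 testable genes passed, against 3.36% of all genes, and this was Ptgs2, which went from 2390, 3841, 3275 and 3478 CPM to 883, 1000, 2003 and 1412 CPM. It fell by 1.30 on the log2 scale (SE 0.312, 2.47-fold, adjusted p = 0.0461), and the highest treated library was below the lowest untreated one (4.07% of all genes). The call was thin: it was lost without untreated library 1 (adjusted p = 0.0678), 2 (0.131), 3 (0.111) or 4 (0.12), without treated library 1 (0.0696) or 2 (0.107), and in a fit over all groups (0.0547), with differences of -1.13 to -1.44. The immediate-early sums of the groups overlapped (15350 to 19380 CPM untreated, 11260 to 20140 CPM treated). The monocyte sum went from 4494 to 8898 CPM to 1510 to 3201 CPM without overlap, the dendritic cell sum from 45.2 to 61.9 CPM to 23.7 to 27.4 CPM, also without overlap, and the neutrophil sum from 1513 to 5261 CPM to 4698 to 11420 CPM. Ly6c2, a member of the monocyte list, rose instead, from 1.90 to 11.2 CPM to 67.5 to 245.5 CPM. The part of these sums in the fall of Ptgs2 was not tested.

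Hpgd in tumor PMN-MDSC was too rare for the test, but its libraries did not overlap, at 11.5, 10.3, 12.8 and 16.6 CPM untreated (105 counts) and 2.46, 3.07, 5.47 and 2.15 CPM treated (35 counts). Alox5ap gave 116, 119, 186 and 181 CPM untreated and 182, 224, 201 and 488 CPM treated (0.88, adjusted p = 0.228). Ptgs1, Hpgds, Alox5, Lta4h, Ltc4s and Alox15 overlapped, with differences of -0.57 to 0.08 and adjusted p of 0.371 to 0.947. Ptges stood at 0.799 to 7.28 CPM untreated and 3.19 to 4.78 CPM treated.

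In tumor M-MDSC Ptgs2 was likewise the 1 gene of 8 that passed, against 2.88% of all genes, going from 2653, 1564, 2140 and 1266 CPM to 588, 255 and 576 CPM. It fell by 2.10 (SE 0.383, 4.29-fold, adjusted p = 0.0266) without overlap (7.05% of all genes). Without the doubtful library 2 it fell by 1.79 and passed (adjusted p = 0.0172). The call was lost without untreated library 1 (0.0779), 2 (0.055), 3 (0.0804) or 4 (0.0526) or treated library 3 (0.093), at differences of -1.89 to -2.26. The immediate-early sum also went from 15980 to 17280 CPM in untreated to 9788 to 13700 CPM in treated libraries without overlap, and the monocyte sum from 11170 to 14570 CPM to 2591 to 6071 CPM, also without overlap. Ly6c2, a member of the monocyte list, stood at 134, 147, 82.9 and 40.4 CPM untreated. In treated libraries it was higher at 622 and 442.5 CPM, except in library 2 (2.98 CPM). The dendritic cell sum went from 25.8 to 64.3 CPM to 11.4 to 25.1 CPM and the endothelium sum from 20.2 to 42.5 CPM to 74.6 to 158 CPM, each without overlap. The part of these 4 sums in the fall of Ptgs2 was not tested.

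The other genes in tumor M-MDSC did not pass, and several hung on 1 library. Ptgs1 (1.15, adjusted p = 0.292) and Hpgds (1.85, adjusted p = 0.324) were 0.12 and 0.34 without library 2. Alox15 gave 6.60, 5.39, 13.6 and 15.1 CPM untreated and 8.01, 19.7 and 127 CPM treated (2.27, adjusted p = 0.192, with DESeq2 0.046, where 9.53% of all genes passed, and 2.68 in edgeR without library 2), where the last library also had the highest eosinophil sum of the M-MDSC libraries (196 CPM). Lta4h gave 101 to 129 CPM untreated and 42.7 to 106 CPM treated (-0.74, adjusted p = 0.199, and -0.46 without library 2), and passed without treated library 1 (-1.14, adjusted p = 0.0347). Alox5 (0.84, and 1.34 without library 2) and Alox5ap (-0.45 and -0.01) overlapped between the groups. Hpgd gave 9.90 to 24.9 CPM untreated and 1.26, 12.6 and 0 CPM treated (-1.88, adjusted p = 0.301), with the highest treated value in library 2, and had too few counts for the test without it. Ptges, not tested, was at 0 to 3.37 CPM untreated and 2.95, 2.52 and 27.6 CPM treated. Ltc4s, not tested either, was at most 1.39 CPM untreated and at 1.26, 6.20 and 4.05 CPM treated.

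**Figure D4:**
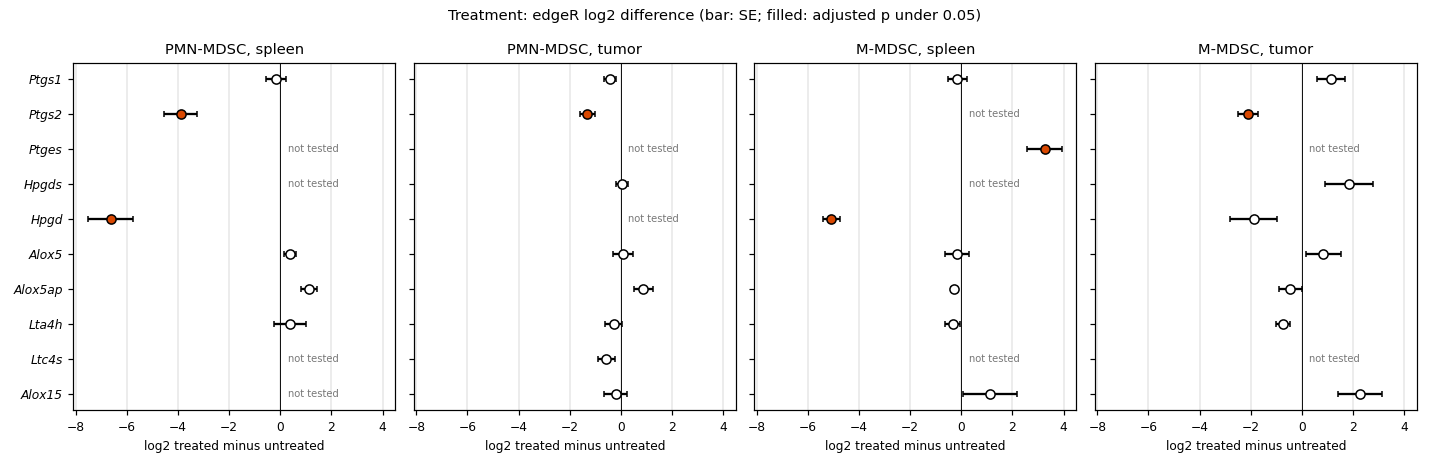
Log2 difference of treated minus untreated mice with its standard error from edgeR for each tested gene in splenic and tumor PMN-MDSC and M-MDSC; filled points passed an adjusted p under 0.05. Hpgd is lowest in the spleen (-6.64 in PMN-MDSC and -5.08 in M-MDSC), Ptgs2 is below 0 wherever it was tested (-3.90, -1.30 and -2.10), and Ptges in splenic M-MDSC (3.25) is the 1 filled point above 0.

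Differences between these treatment effects were tested directly. In PMN-MDSC, 1 of 8 genes passed (3.5% of all genes): the treatment effect on Hpgd was less negative in the tumor than in the spleen by 4.63 on the log2 scale (SE 0.944, adjusted p = 0.017), and it passed also without tumor untreated library 1, which had 0 counts of Ly6g (adjusted p = 0.0309). The corresponding difference for Ptgs2 was 2.62 (SE 0.706, adjusted p = 0.0541). It passed with DESeq2 (0.00406, where 6.23% of all genes passed), with upper-quartile scaling (0.0381), in the fit over all groups (0.0243) and without treated spleen library 2 (4.21, adjusted p = 0.0226). Alox15 passed without treated spleen library 1 (7.30, adjusted p = 0.0485). In M-MDSC 0 of 8 genes passed with edgeR (0.79% of all genes, and 1238 genes at an unadjusted p under 0.05), and with DESeq2 2 of them did (3.52% of all genes). Ptgs2 there differed by -3.84 (edgeR adjusted p = 0.0556, DESeq2 0.00109, and -3.53 with edgeR adjusted p = 0.0702 without the doubtful library 2) and Hpgd by 3.29 (0.127 and 0.0365), and by 0.23 with edgeR adjusted p = 0.988 without that library. In the fit over all groups both passed (0.0383 and 0.0465), as they did without tumor treated library 1 (0.032 and 0.0499) or 3 (0.0496 and 0.0288), and Ptgs2 without spleen treated library 4 (0.0416). The other 5 tested genes besides Hpgd, Ptgs2 and Alox15 in PMN-MDSC (Hpgds 2.35, Lta4h -0.63, Alox5 -0.25, Ptgs1 -0.22 and Alox5ap -0.21) had adjusted p of 0.129 to 0.91. The other 6 in M-MDSC (Ptgs1 1.34, Alox15 1.17, Alox5 1.001, Hpgds 0.76, Lta4h -0.38 and Alox5ap -0.14) had adjusted p of 0.416 to 0.927, and without the doubtful library 2 stood at 0.30, 1.56, 1.504, -0.78, -0.10 and 0.30. Ptges and Ltc4s were not tested for unequal effects in any of these comparisons.

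In the spleen, 2 of 7 genes responded differently in the cell types (10.9% of all genes). The response of Ptgs2 was lower in PMN-MDSC than in M-MDSC by 5.57 on the log2 scale (-5.57, SE 1.10, adjusted p = 0.00791), with counts of 5 and 18 in the M-MDSC groups. That of Alox5ap was higher in PMN-MDSC by 1.51 (SE 0.34, adjusted p = 0.0142), but not in a fit over all groups (0.0865). The other tested genes were Alox15 (-3.87), Hpgd (-1.50), Lta4h (0.75), Alox5 (0.60) and Ptgs1 (0.06), at adjusted p of 0.168 to 0.964, and Hpgds was not tested. In the tumor 0 of 7 genes passed (0.0239% of all genes, 720 genes at an unadjusted p under 0.05, and 0 of 7 with DESeq2, where 0.262% of all genes passed). The difference between cell types in the fall of Ptgs2 was 0.79 there (SE 0.495, adjusted p = 0.687), and 0.48 without M-MDSC library 2. Those of Alox15 (-2.48), Hpgds (-1.81), Ptgs1 (-1.57), Alox5ap (1.32), Alox5 (-0.74) and Lta4h (0.45) had adjusted p of 0.529 to 0.855, and without that library stood at -2.88, -0.30, -0.55, 0.88, -1.25 and 0.17. Hpgd was not tested.

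PMN-MDSC and M-MDSC were also compared with each other. In the spleen of untreated mice 6 of 6 testable genes differed, against 64.4% of all genes. Alox5 was the clearest, at 284, 367, 346 and 324 CPM in PMN-MDSC and 21.6, 28.3, 40.97 and 44.99 CPM in M-MDSC (3.65, SE 0.235, 12.6-fold, adjusted p = 2.56e-06). Alox5ap (0.94, adjusted p = 0.000762), Ptgs1 (1.15, adjusted p = 0.00503) and Ptgs2 (88.4-fold, exact 95% interval for counting error 37.6 to 274, adjusted p = 1.01e-05) were also higher in PMN-MDSC, and Hpgd was lower (-1.29, adjusted p = 0.0159). Lta4h passed with overlapping libraries (0.68, adjusted p = 0.0292) but not without M-MDSC library 1 (0.0715), 2 (0.0808) or 4 (0.0579), without PMN-MDSC library 3 (0.066), with upper-quartile scaling (0.43, adjusted p = 0.125) or in the fit over all groups (0.139). The genes not tested were Hpgds (2.49 to 20.96 CPM in PMN-MDSC, 0.465 to 1.66 CPM in M-MDSC), Alox15 (3.53 to 13.9 and 1.43 to 31.6 CPM), Ptges (0.996 to 3.98 and 0.238 to 4.97 CPM) and Ltc4s (0.531 to 2.99 and at most 0.828 CPM).

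In the spleen of treated mice 3 of 6 testable genes differed, against 61.2% of all genes. Alox5 gave 434, 350 and 257 CPM in PMN-MDSC and 44.97, 13.1, 11.8 and 48.2 CPM in M-MDSC (4.14, SE 0.542, adjusted p = 0.000409), and Alox5ap differed by 2.33 (adjusted p = 0.000387). Both were higher in every PMN-MDSC library, as were 17.1% of all genes. Alox15 was lower in PMN-MDSC (-4.05, adjusted p = 0.037) with overlapping libraries, and lost the call without M-MDSC library 1 (-3.90, adjusted p = 0.0714), PMN-MDSC library 2 (-3.37, adjusted p = 0.116) or PMN-MDSC library 3 (-3.29, adjusted p = 0.106). The differences of Ptgs1 (1.10, adjusted p = 0.067), Lta4h (1.34, adjusted p = 0.109) and Ptges (-1.31, adjusted p = 0.161) did not pass. Ptgs1 passed with DESeq2 (0.0328, where 63.8% of all genes passed), in the fit over all groups (0.0342) and without PMN-MDSC library 2 (0.0302), and Lta4h with DESeq2 (0.0486), in the fit over all groups (0.0103) and without PMN-MDSC library 3 (0.0352). Without PMN-MDSC library 1 Ptges was at -2.60 and passed (adjusted p = 0.013). Ptgs2 (0.36 to 4.46 CPM in PMN-MDSC, 0.442 to 2.701 CPM in M-MDSC), Hpgds (0.36 to 2.60 and 0.291 to 6.08 CPM), Hpgd (0 to 0.72 and 2.36 to 4.95 CPM) and Ltc4s (at most 0.743 and 0.442 CPM) were not tested. The neutrophil sum was 24580 to 43380 CPM in untreated and 35180 to 77540 CPM in treated splenic PMN-MDSC, against 4112 to 10330 and 1045 to 6267 CPM in M-MDSC, and its part in the higher Alox5 and Alox5ap was not tested. In untreated spleen, by the ranges given above, the macrophage and platelet sums were also higher in PMN-MDSC and the monocyte sum lower, without overlap. The part of these cells in the differences of Ptgs1, Ptgs2 and Hpgd there was not tested.

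In the tumor of untreated mice 4 of 8 testable genes differed, against 13.0% of all genes, all higher in the libraries labelled PMN-MDSC. Alox5 gave 45.5, 111, 159 and 149 CPM in PMN-MDSC and 7.15, 10.8, 18.3 and 11.3 CPM in M-MDSC (3.28, SE 0.407, adjusted p = 0.000512). Ptgs1 gave 124 to 145 CPM against 19.8 to 55.8 CPM (1.85, SE 0.245, adjusted p = 0.000414), and Alox15 differed by 2.15 (adjusted p = 0.00919, but 0.135 in a fit over all groups). Ptgs2 passed with overlapping libraries (0.82, adjusted p = 0.0385) and did not without M-MDSC library 2 (0.102), 3 (0.069) or 4 (0.0595), without PMN-MDSC library 2 (0.113), 3 (0.0851) or 4 (0.0942), or in a fit over all groups (0.186). The eosinophil sum was 96.4 to 228 CPM in PMN-MDSC and 2.199 to 38.3 CPM in M-MDSC, the neutrophil sum 1513 to 5261 and 259 to 842 CPM, and the macrophage sum 3845 to 4921 and 1892 to 2754 CPM, each without overlap. By the ranges given above, the platelet and megakaryocyte sum was also higher in PMN-MDSC and the monocyte sum lower, without overlap. The part of these cells in these differences was not tested.

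Hpgds in untreated tumors was higher in every PMN-MDSC library, as were 8.88% of all genes (60.2 to 75.8 CPM) than in M-MDSC (0.55, 28.98, 30.2 and 32.8 CPM) but missed the threshold (1.67, adjusted p = 0.117), and without M-MDSC library 1 the difference was 1.23 and passed (adjusted p = 0.00192). Ltc4s, too rare to test, gave 119 counts in PMN-MDSC and 7 counts in M-MDSC of untreated tumors, a ratio of 16.2 with an exact 95% interval for counting error of 7.60 to 41.04. Alox5ap (-0.54, adjusted p = 0.084, and -0.64 with adjusted p = 0.0289 without M-MDSC library 4), Hpgd (-0.41, adjusted p = 0.438) and Lta4h (-0.31, adjusted p = 0.295) did not pass. In treated tumors 0 of 7 genes passed with edgeR (0.38% of all genes, and 1153 genes at an unadjusted p under 0.05). DESeq2, with 3.37% of all genes called, called Ptgs2 (1.64, adjusted p = 0.0107) and Alox5 (2.57, adjusted p = 0.00481). Both were higher in every PMN-MDSC library, as were 7.39% of all genes. In edgeR Ptgs2 differed by 1.61 (adjusted p = 0.229) and by 1.31 (0.279) without M-MDSC library 2, and Alox5 by 2.55 (0.233) and by 2.05 (0.233). Both passed in the fit over all groups (0.0266 and 0.00753). Alox5ap (0.78), Alox15 (-0.31), Ptgs1 (0.27), Hpgds (-0.16) and Lta4h (0.13) overlapped, with adjusted p of 0.552 to 0.926, and without M-MDSC library 2 stood at 0.34, -0.72, 1.31, 1.37 and -0.14 (0.233 to 0.895). Ltc4s (5.80 to 12.9 CPM in PMN-MDSC, 1.26 to 6.20 CPM in M-MDSC), Hpgd (2.15 to 5.47 and 0 to 12.6 CPM) and Ptges (3.19 to 4.78 and 2.52 to 27.6 CPM) were not tested. In untreated tumors Ptges, not tested, was at 0.799 to 7.28 CPM in PMN-MDSC and 0 to 3.37 CPM in M-MDSC.

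The step from spleen to tumor differed between the cell types of untreated mice for 3 of 8 genes, a share near that of all genes (37.3%). Besides Ptgs2, described above, the difference of tumor minus spleen was more negative in PMN-MDSC than in M-MDSC for Alox5ap by 1.45 (-1.45, SE 0.266, adjusted p = 0.000698) and for Lta4h by 0.95 (-0.95, SE 0.313, adjusted p = 0.0247). The call for Lta4h was lost in a fit over all groups (0.185) and with upper-quartile scaling (0.0606). Without PMN-MDSC library 1 of the tumor all 3 passed. Hpgds (-1.66, adjusted p = 0.206) passed without M-MDSC library 1 of the tumor (-2.09, adjusted p = 0.0284), Alox15 without M-MDSC library 4 of the spleen (2.63, adjusted p = 0.0282) and Hpgd without PMN-MDSC library 1 of the spleen (1.27, adjusted p = 0.0246). In the fit with all libraries Alox15 was at 2.28 (adjusted p = 0.0804), Hpgd at 0.92 (0.181), Ptgs1 at 0.73 (0.15) and Alox5 at -0.33 (0.61).

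Bulk tumor, which holds many cell types, was compared with the sorted tumor cells of untreated mice. Of 7 testable genes 6 were lower in bulk tumor than in tumor PMN-MDSC, against 69.5% of all genes. The largest differences were those of Ptgs2 (-9.26, SE 0.364, 613-fold, adjusted p = 5.26e-09), Alox15 (-8.33) and Alox5, at 0.661, 0.53, 1.01 and 0.229 CPM in bulk tumor (18 counts, a ratio of 197 with an exact 95% interval for counting error of 124 to 334). Alox5ap (-6.09), Ptgs1 (-3.88) and Hpgds (-3.32) were lower as well. Lta4h, which many tissues express, was at 135, 118, 79.3 and 59.3 CPM in bulk tumor and did not differ detectably (-0.12, SE 0.276, adjusted p = 0.708). Hpgd and Ltc4s were not tested. Hpgd stood at 0.529, 1.59, 1.12 and 3.78 CPM in bulk tumor and 10.3 to 16.6 CPM in tumor PMN-MDSC, and Ltc4s at 0.264, 0, 0 and 0.114 CPM and 9.75 to 21.2 CPM, both without overlap. Of all genes tested, 25.3% were lower in bulk tumor without overlap.

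Against tumor M-MDSC 4 of 5 testable genes were lower in bulk tumor (69.2% of all genes), with log2 differences of -8.38 for Ptgs2, -6.57 for Alox5ap, -1.98 for Ptgs1 and -1.60 for Hpgds (adjusted p = 0.0387). The call for Hpgds was lost without each library except M-MDSC library 1, at adjusted p of 0.0687 to 0.135, and with upper-quartile scaling (0.0678). Lta4h again did not differ detectably (-0.37, SE 0.259, adjusted p = 0.222). Ptges gave 5.42, 5.83, 5.74 and 6.41 CPM in bulk tumor, above its means of 3.07 CPM in untreated tumor PMN-MDSC and 1.60 CPM in untreated tumor M-MDSC, and was not tested. Untreated tumor PMN-MDSC ranged from 0.799 to 7.28 CPM, overlapping bulk tumor, and M-MDSC from 0 to 3.37 CPM. In the edgeR fit with no filter on low counts, bulk tumor was higher by 0.99 against PMN-MDSC (adjusted p = 0.0941) and by 1.75 against M-MDSC (adjusted p = 0.00474). Also not tested against M-MDSC were Hpgd (9.90 to 24.9 CPM in M-MDSC), Alox5 (7.15 to 18.3 CPM, against 0.229 to 1.01 CPM in bulk tumor), Alox15 (5.39 to 15.1 CPM, against at most 0.264 CPM) and Ltc4s (at most 1.39 CPM). Hpgd, Alox5 and Alox15 did not overlap between the groups, as was so for 24.7% of all genes tested with bulk tumor lower.

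The genes around these enzymes were taken from a list of 65 symbols for arachidonic acid release, other prostanoid and leukotriene enzymes, and receptors, of which 64 were in the table. With treatment, 6 of 25 tested genes passed in splenic PMN-MDSC (11.6% of all genes, 3 higher and 3 lower, median log2 difference 0.34 beside 0.01 over all genes) and 8 of 24 in splenic M-MDSC (19.6% of all genes, 7 higher and 1 lower, median -0.02). In tumor M-MDSC 3 of 23 passed (2.88% of all genes, 2 higher and 1 lower, median 0.31 beside 0.00 over all genes, and 5 of 22 against 4.58% without library 2), and in tumor PMN-MDSC 0 of 25 (3.36% of all genes, median 0.03). Fpr2, a receptor of lipoxin and formyl peptides, rose in splenic PMN-MDSC (1.92, adjusted p = 0.00391), splenic M-MDSC (3.26, adjusted p = 2.66e-05) and tumor M-MDSC (3.05, adjusted p = 0.00325, and 3.10 without library 2).

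In splenic PMN-MDSC the leukotriene-processing Ggt1 (4.97, adjusted p = 0.0104) and the leukotriene C4-forming glutathione transferase Mgst2 (1.21, adjusted p = 0.0316) rose with treatment, and the thromboxane synthase Tbxas1 (-1.32, adjusted p = 0.0446), the cytosolic prostaglandin E synthase Ptges3 (-1.14, adjusted p = 0.0285) and the phospholipase Pla2g15 (-1.28, adjusted p = 0.0269) fell. In splenic M-MDSC, 5 of 8 arachidonic acid release genes passed, 2 of 4 receptors of leukotrienes and other lipids, 1 of 4 leukotriene enzymes, and 0 of 6 prostanoid enzymes and 0 of 2 prostanoid receptors, against 19.6% of all genes. Among them were Lpcat2, a lysophospholipid acyltransferase (1.09, adjusted p = 0.00072), and Daglb, a diacylglycerol lipase that fell (-0.92, adjusted p = 0.00135). The chemerin and lipid receptor Cmklr1 rose there too (0.96, adjusted p = 0.00151). In tumor M-MDSC the phospholipase Pla2g7 rose (1.49, adjusted p = 0.0493) and the cysteinyl leukotriene receptor Cysltr1 fell (-1.48, adjusted p = 0.0412). Both passed without library 2 (1.71, adjusted p = 0.0193, and -1.69, adjusted p = 0.0256).

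Between tumor and spleen the list split in PMN-MDSC, with 20 of 26 genes called in untreated mice (59.1% of all genes, 10 higher and 10 lower in the tumor, median 0.17) and 21 of 28 in treated mice (53.6% of all genes, 12 higher and 9 lower, median -0.41). Cysltr1 was higher in the tumor in PMN-MDSC (3.39 untreated, adjusted p = 0.000323, and 6.17 treated, adjusted p = 0.000225) and in untreated M-MDSC (2.20, adjusted p = 2.3e-05). Of the prostaglandin E2 receptors, Ptger4 was higher (1.38, adjusted p = 0.000261) and Ptger2 lower (-2.35, adjusted p = 0.000111) in untreated tumor PMN-MDSC, and the microsomal glutathione transferase Mgst1 was lower in untreated (-2.93, adjusted p = 7.46e-05) and treated ones (-2.97, adjusted p = 0.000228).

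The further genes named by the same rule in PMN-MDSC were Cmklr1 (2.72) and Ggt5 (-2.06) in untreated mice, and the leukotriene exporter Abcc1 (2.39), Pla2g15 (2.43), Mgst2 (-3.57) and the monoacylglycerol lipase Mgll (-2.22) in treated mice. In M-MDSC 11 of 23 genes passed in untreated mice (28.4% of all genes, 9 higher and 2 lower in the tumor, median 0.02), with Lpcat2 (1.06), Cmklr1 (1.10), the prostacyclin receptor Ptgir (-1.89, adjusted p = 0.000988) and Mgst1 (-0.82). In treated M-MDSC 2 of 25 passed (5.87% of all genes), Tbxas1 (1.31, adjusted p = 0.0119) and Daglb (1.02, adjusted p = 0.0499). Without tumor library 2 Tbxas1 passed (1.10, adjusted p = 0.0215) and Daglb did not (0.73, adjusted p = 0.101).

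PMN-MDSC and M-MDSC differed for 23 of 27 list genes in untreated spleen (12 higher in PMN-MDSC and 11 lower) and 20 of 29 in treated spleen (11 and 9), where 64.4% and 61.2% of all genes passed. In tumors 5 of 22 passed in untreated mice (4 and 1, 13.0% of all genes) and 0 of 26 in treated mice (0.38%). Lpcat2 (2.71, adjusted p = 1.4e-06), Ggt5 (4.12, adjusted p = 1.67e-06) and Fpr2 (3.46, adjusted p = 8.3e-06) were higher in untreated splenic PMN-MDSC, as were Lpcat2 (1.20), Ggt5 (2.50) and Fpr2 (1.86) in untreated tumors. Ptger4 (-1.17, adjusted p = 0.00114), Abcc4 (-1.09) and Akr1b3 (-1.96), an aldose reductase with prostaglandin F synthase activity, were lower in splenic PMN-MDSC, and Cysltr1 was lower in untreated tumor PMN-MDSC (-0.92, adjusted p = 0.0205). In treated spleen Mgst1 (2.96), Fpr2 (2.07) and Lpcat2 (2.03) were higher in PMN-MDSC, and Akr1b3 (-4.37), Abcc1 (-2.28) and Cysltr1 (-5.50) were lower, at adjusted p of 6.59e-05 to 0.000262. In bulk tumor 22 of 29 list genes differed from tumor PMN-MDSC (9 higher and 13 lower) and 23 of 29 from tumor M-MDSC (10 and 13), near the shares of all genes (69.5% and 69.2%), with the prostaglandin transporter Slco2a1 higher in bulk tumor (4.13 and 5.04) and the leukotriene B4 hydroxylase Cyp4f18 lower (-6.47 and -5.31). Mgst2 was likewise higher (3.99 against PMN-MDSC and 4.12 against M-MDSC) and Cmklr1 lower (-4.34 and -4.67) in bulk tumor. The prostanoid exporter Abcc4 was higher (2.001) and Ggt5 lower (-5.67) against PMN-MDSC, and the phospholipase Pla2g12a was higher (2.51) and Cysltr1 lower (-4.93) against M-MDSC.

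Unequal effects were also tested for this list. For treatment by tissue 0 of 28 genes passed in PMN-MDSC (3.5% of all genes) and 1 of 24 in M-MDSC (0.79%, and 0 of 24 against 0.549% without tumor treated library 2), Daglb (1.25, adjusted p = 0.0442), whose call was lost without that library (0.96, adjusted p = 0.0745). For treatment by cell type 4 of 29 passed in spleen (10.9% of all genes), with Mgst1 higher in PMN-MDSC than in M-MDSC (1.74, adjusted p = 0.00955) and Ptges3 (-1.43, adjusted p = 0.00818), Akr1b3 (-2.30, adjusted p = 0.013) and Fpr2 (-1.28, adjusted p = 0.0308) lower, and 0 of 24 in tumor (0.0239%). The step from spleen to tumor differed between the cell types of untreated mice for 14 of 25 (37.3% of all genes, 6 higher and 8 lower in PMN-MDSC). Akr1b3 (2.28, adjusted p = 0.00103), Cmklr1 (1.70, adjusted p = 0.00744) and Ptger4 (0.95, adjusted p = 0.0123) had the smallest adjusted p among those higher, and Ptger2 (-3.37, adjusted p = 0.000171), Lpcat2 (-1.48, adjusted p = 0.000187) and Mgst1 (-1.99, adjusted p = 0.00275) among those lower.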

How the data were processed

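RNA-seq libraries of sorted PMN-MDSC and M-MDSC and of bulk tumor were analysed as deposited counts. The authors sequenced total RNA (stranded, depleted of ribosomal RNA and amplified by PCR, with no molecular identifiers described), aligned them with ContextMap and BWA to mm10 (the GRCm38 assembly), and obtained strand-specific gene counts from featureCounts (Subread 1.4.6-p3 in the submitters' processing notes). The count table held 35 columns, of which 34 were used and 1, labelled treated tumor M-MDSC, was left out with 10 counts. Columns were assigned by cell type, tissue and treatment in their names. All 48 pairs of libraries within groups differed beyond sampling noise (chi-square per degree of freedom 6.88 to 55.8, 0 identical pairs), so each was counted once. GENCODE M21 (GRCm38) gave symbols, positions and summed exon lengths, with 53274 identifiers matched. With 3 counts taken as the floor, the least deep MDSC library allows up to 3.78 CPM for a gene at 0.

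Levels are CPM of the library total, and per kilobase of summed exons between genes. Each comparison was fitted on its own groups in R 4.3.3 with edgeR 4.0.16 (limma 3.58.1): TMM scaling, robust dispersions, quasi-likelihood F-test on genes averaging 25 or more counts per library, Benjamini-Hochberg over all genes tested, threshold 0.05. Directions are the first group minus the second, and interactions are tumor minus spleen or PMN-MDSC minus M-MDSC. The median log2 difference over all genes was between -0.107 and 0.108, except for bulk tumor against M-MDSC (0.174). Where a group held few counts, the ratio of pooled counts over pooled library totals with an exact 95% interval was given. Alternatives were DESeq2 1.42.0, RLE and upper-quartile scaling, no filter, a fit over all groups, the thresholds of the study (0.001 and 2-fold), and each library left out. The code was tested on simulated data with known changes. All 10 genes were named in every comparison. Of the pathway list, the 3 called genes with the smallest adjusted p in each direction were named, and for each of the 10 the 3 genes with the highest correlation, of which 1 is not reported here, nor are the other alleles of the tumor line. The genes, lists and comparisons were chosen with earlier results of these data known. Promoter sequences are from RefSeq.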

Additional observations from a re-analysis of the deposited data

Results flagged for a closer look

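In 3 of 70 groups tested for it, 1 library stood far from the others of its group, where chance gives about 1 in 20. Hpgds was at 0.55 CPM in library 1 of untreated tumor M-MDSC and at 28.98 to 32.8 CPM in the other 3. Alox5ap was at 488 CPM in library 4 of treated tumor PMN-MDSC (182 to 224 CPM in the others) and at 169 CPM in library 4 of untreated tumor M-MDSC (238 to 250 CPM in the others). The last of these was the least deep library of the MDSC, with 793070 counts.

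The same contrast gave different effects in 2 settings for 4 genes by the edgeR test of the difference, which 3.5%, 10.9% and 37.3% of all genes passed in the 3 settings below. The treatment effect on Hpgd in PMN-MDSC differed between tumor and spleen by 4.63 on the log2 scale (adjusted p = 0.017). In the spleen the treatment effect differed between PMN-MDSC and M-MDSC by -5.57 for Ptgs2 (adjusted p = 0.00791) and by 1.51 for Alox5ap (adjusted p = 0.0142, and 0.0865 in the fit over all groups). In untreated mice the difference between tumor and spleen was unequal in PMN-MDSC and M-MDSC for Ptgs2 (-5.80, adjusted p = 9.34e-06), Alox5ap (-1.45, adjusted p = 0.000698) and Lta4h (-0.95, adjusted p = 0.0247, and 0.185 in the fit over all groups), and the 3 of 8 genes are near the share of all genes.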

How the results depend on the processing

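The counts of the 10 genes called, as first given, were 2 for treatment in splenic PMN-MDSC, 1 in tumor PMN-MDSC, 2 in splenic M-MDSC and 1 in tumor M-MDSC. Under the thresholds of the study (0.001 and 2-fold) these became 0, 0, 1 and 0, and without the filter on low counts 5, 3, 2 and 4. DESeq2 gave 2 in tumor M-MDSC, and the fit over all groups 0 in tumor PMN-MDSC. Leaving out 1 library gave 2 to 3, 0 to 1, 1 to 2 and 0 to 2. Between tumor and spleen the counts were 8 in untreated and 7 in treated PMN-MDSC and 4 and 2 in M-MDSC, which became 5, 2, 2 and 1 under the study's thresholds. There the fit over all groups gave 2 in untreated M-MDSC and 3 in treated ones, DESeq2 gave 4 in treated M-MDSC, no filter gave 6 and 3, and leaving out 1 library gave 1 to 2 in treated M-MDSC. For PMN-MDSC against M-MDSC the counts of 6 and 3 in untreated and treated spleen and 4 and 0 in tumors became 2, 2, 2 and 0 under the study's thresholds, 5, 5, 2 and 2 in the fit over all groups, and 6, 5, 4 and 2 with DESeq2. Without the filter, treated tumors gave 1, and leaving out 1 library gave 2 to 4 in treated spleen. Bulk tumor against M-MDSC gave 9 without the filter in place of 4. The unequal effects counted 1 for treatment by tissue in PMN-MDSC (2 with DESeq2, upper-quartile scaling and all groups, 3 without the filter, 0 under the study's thresholds, 1 to 2 without 1 library), 0 in M-MDSC (2, 0 and 2, 3, 0, and 0 to 2), 2 for treatment by cell type in spleen (4 without the filter, 1 over all groups, 0 under the study's thresholds, 1 to 2 without 1 library), 0 in tumor, and 3 in untreated mice (2 to 4 in all). No call of a gene reversed its direction under any alternative. Of 135 tests of single genes, 124 kept their side of the threshold with DESeq2, 135 with RLE scaling and 130 with upper-quartile scaling, which moved the median of all genes by -0.334 to 0.304. Stricter thresholds allow fewer calls by construction, and the causes of the other changes were not tested.

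The highest group by mean stayed the same for 10 of 10 genes with TMM scaling, and for 7 with the median in place of the mean (not for Hpgds, Lta4h and Alox15). Depth limits the genes with few counts, such as Ptges, Ltc4s, Ptgs2 in splenic M-MDSC and Hpgd in treated spleen. The values of named pathway genes without library 2 of treated tumor M-MDSC were chosen after seeing the data. No paired analysis was possible because the columns carry no mouse number, so the replicate block was not run.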
